A study of Mus musculus with 4 samples.

Results

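The regions described here were called as open in both libraries of keratinocytes lacking Mapk8 and had no called peak in either library of control keratinocytes. The peaks of all 4 libraries were merged wherever they shared at least 1 bp, which gave 82641 regions. Members were chosen by the peak calls alone. A region was kept when a peak of each Mapk8-KO library overlapped it and no WT peak did, and 1367 regions (1.65% of the atlas) met this rule. No further filter was applied, so all 1367 are described. With 1 library left out, 5404 (without WT 1), 1833 (without WT 2), 3063 (without Mapk8-KO 1) and 8394 regions (without Mapk8-KO 2) met the rule. The mirror class, called in both WT libraries and in neither Mapk8-KO library and named WT-only below, held 1796 regions, and 40159 regions were called in all 4 libraries.

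The libraries were made by ATAC-seq, in which a transposase inserts sequencing adapters into accessible DNA. Each genotype had 2 libraries, WT 1 and WT 2, and Mapk8-KO 1 and Mapk8-KO 2. The mice were females of 8 to 12 weeks on a C57BL/6 background, and their skin had received a cream with 5% imiquimod, an agonist of Toll-like receptor 7, daily for 8 days. The Mapk8-KO mice carried floxed Mapk8 alleles and a Cre transgene driven by the keratin 14 promoter, so that recombination was directed to basal keratinocytes and their progeny, and the study used littermates as controls. EpCam+ CD49f hi epidermal cells were sorted for both genotypes, with antibodies to CD45, CD31 and CD140a, which mark leukocytes, endothelium and fibroblasts, in the stain. The treatment is taken from the study's methods, since the labels do not tie it to single libraries, and they do not say whether a library came from 1 mouse or from several.

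Mapk8 encodes JNK1, a stress-activated kinase that phosphorylates c-Jun, a subunit of the AP-1 transcription factors. AP-1 dimers of Fos and Jun proteins open distal enhancers in epidermis and are strongly induced in inflamed skin. CTCF is a zinc finger protein that binds a long recognition sequence and is known for its place at the anchors of chromatin loops and at insulators. Grainyhead-like (GRHL) proteins open epithelial enhancers.

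Sequences from members are shown to let the motif counts below be read on real DNA. All come from the GRCm38 (mm10) reference assembly of RefSeq, are read 5′ to 3′ on the strand given, and are named for the nearest coding gene. The first 4 are those in which the CTCF motif was found among the highest-ranking members. Capitals mark the match to CCA, 2 free bases, AG, 2 free bases, GGC, and 25 bases are shown on each side.
Ahi1, chr10:20966208-20966269, minus strand: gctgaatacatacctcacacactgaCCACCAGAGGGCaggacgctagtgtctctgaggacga
Samd12, chr15:54070140-54070201, plus strand: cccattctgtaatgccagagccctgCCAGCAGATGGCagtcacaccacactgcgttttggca
Fthl17f, chrX:9061145-9061206, plus strand: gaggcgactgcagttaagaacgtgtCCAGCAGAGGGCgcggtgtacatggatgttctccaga
A4galt, chr15:83271367-83271428, plus strand: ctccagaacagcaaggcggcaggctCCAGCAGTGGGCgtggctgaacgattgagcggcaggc

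The next 3 are the highest-ranking members with the AP-1 motif TGACTCA, marked in capitals, among those without similarity to mitochondrial DNA. They are shown because so few members held this motif.
4930544G11Rik, chr6:66219408-66219464, minus strand: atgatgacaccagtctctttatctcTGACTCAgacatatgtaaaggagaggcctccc
Ttc17, chr2:94377568-94377624, plus strand: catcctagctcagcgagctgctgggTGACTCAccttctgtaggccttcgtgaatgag
Cdk1, chr10:69302773-69302829, minus strand: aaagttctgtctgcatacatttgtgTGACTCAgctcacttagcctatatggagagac

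A match to the GRHL motif AACCNGTT, in capitals, lay in the third-ranking member, near Luzp2.
Luzp2, chr7:53937982-53938039, minus strand: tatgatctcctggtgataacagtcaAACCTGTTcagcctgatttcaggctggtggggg

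The members held fewer AP-1 motifs and more CTCF motifs than the WT-only regions. Each motif was looked for up to 100 bp from the strongest summit, on either strand, and a match describes the letters and not a bound site. The AP-1 motif was found in 101 members (7.39%, Wilson 95% interval 6.12 to 8.90%) and in 644 WT-only regions (35.9%, 33.7 to 38.1%), a difference of −28.5 percentage points (95% interval −31.1 to −25.8). It was found in 23.7% of all merged regions. The CTCF motif went the other way, with 106 members (7.75%, 6.45 to 9.29%) against 67 WT-only regions (3.73%, 2.95 to 4.71%), a difference of 4.02 points (2.39 to 5.75). It was found in 4.63% of all merged regions and in 3.11% of those called in all 4 libraries. Only 2 members held both motifs. These intervals cover counting error only and not the spread between mice.

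Both differences were also present outside promoters. There, farther than 2 kb from any annotated transcription start site (TSS), 93 of 1122 members (8.29%) held the CTCF motif against 3.38% of WT-only regions and 3.24% of regions called in all 4. The AP-1 motif was found in 7.93%, 37.2% and 32.6% of the same classes. Regions of other call patterns are given for scale. The CTCF motif was found in 8.45% of the 3492 distal regions called in both Mapk8-KO libraries and 1 WT library, in 7.54% and 8.95% of those called in only the first or the second Mapk8-KO library, in 6.67% of those in WT 1 alone and in 5.97% of those in WT 2 alone. A CTCF share above 5% was thus not confined to the members, and it was also found in regions called in single WT libraries. Nor was a low AP-1 share, which was 6.33% in distal regions of Mapk8-KO 2 alone, 16.3% in those of Mapk8-KO 1 alone and 13.6% in those of both Mapk8-KO libraries and 1 WT library.

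**Figure D1:**
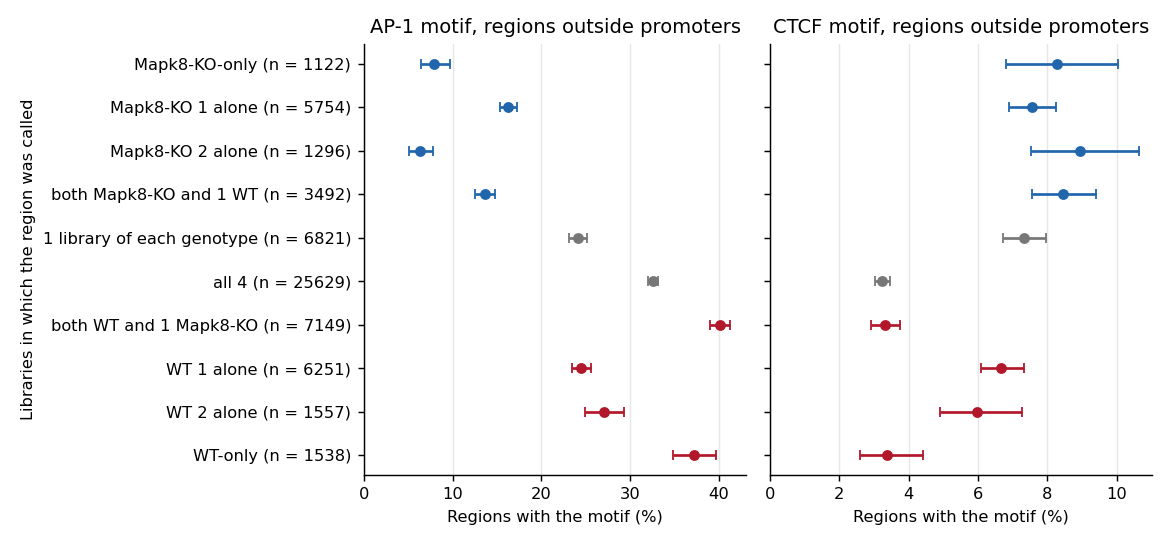
Share of regions outside promoters that held the AP-1 (left) or the CTCF motif (right) within 100 bp of the strongest summit, on the x axis in percent, by the libraries in which the region was called, with Wilson 95% intervals as bars. The 1122 Mapk8-KO-only regions sit at 7.93% for AP-1 and 8.29% for CTCF, and the 1538 WT-only regions at 37.2% and 3.38%.

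The CTCF motif was more frequent among stronger members. Strength was ranked by the percentile of fold enrichment in the weaker of the Mapk8-KO libraries. Of the 342 lowest-ranking members 3.8% held the CTCF motif (2.24 to 6.39%), of the next groups 5.85% and 9.09%, and of the 342 highest-ranking members 12.3% (9.22 to 16.2%). In WT-only regions ranked the same way the CTCF share ran from 2.90% to 4.23%, while their AP-1 share ran from 26.7% to 46.8%. The AP-1 share of members stayed between 6.14% and 8.19% over the same ranks. Members with the CTCF motif lay a median of 26.4 kb from the nearest region called in all 4 libraries, against 14.7 kb for the other members, and 44 of the 106 were in introns and 43 between genes.

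Over whole libraries these motifs differed far less. The CTCF motif was found in 4.13% and 3.29% of the intervals of WT 1 and WT 2 and in 4.22% and 3.93% of those of the Mapk8-KO libraries, so the genotypes overlapped (exact permutation p = 0.667, two-sided). The AP-1 motif was found in 25.2%, 26.2%, 23.9% and 21.1% in the same order, with no overlap between genotypes (exact permutation p = 0.33, two-sided, the smallest that 2 against 2 libraries allow). Leaving out WT 2 reduced the CTCF difference between members and WT-only regions to 1.85 points. Leaving out WT 1, WT 2 or Mapk8-KO 2 brought the AP-1 difference to −18.5, −17.2 and −18.5 points.

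Of the 24 motifs searched, 4 more had shares in members that differed from WT-only regions with an interval that left out 0, both overall and outside promoters. The GRHL motif was found in 54 members (3.95%) against 2.45% of WT-only and 3.13% of all regions, a difference of 1.5 points (0.273 to 2.82). The KLF motif CCACACCC, bound by Krüppel-like factors, was found in 4.46% of members against 8.02% of WT-only and 5.82% of all regions, and the POU octamer ATGCAAAT in 1.17% against 2.90% and 2.30%. Low shares of both were not confined to members. In regions of Mapk8-KO 1 alone and Mapk8-KO 2 alone the KLF share was 4.30% and 2.88%, and the POU share 1.83% and 1.47%. The E-box CAGCTG was found in 15.1% of members, 11.9% of WT-only and 13.4% of all regions. Set against regions called in all 4 libraries, the GRHL (3.46%) and E-box (13.6%) differences had intervals that held 0. NRF1 (0.585% against 0.0557%, with 1.38% of all regions) and the GC box GGGGCGGGG (2.27% against 1.17%, with 4.21% of all) also had higher shares in members, but outside promoters the interval of each difference held 0. For the other 16 motifs the interval held 0 over all regions. No allowance was made for the number of motifs searched.

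The members were weak peaks. Strength is given as the pileup at the summit, the number of overlapping fragments, which was recovered from the fold enrichment and p-value of each peak. Members of the first Mapk8-KO library ranged from 10 to 260 fragments, with a median of 19, where all peaks of that library had a median of 36. In the other they ranged from 8 to 189 with a median of 14, where all peaks had a median of 26. Among all peaks of the library, the median member stood at percentile 21.6 and 18.2 of fold enrichment. WT-only regions were also weak in their own libraries, at percentile 28.0 in WT 1 (median 19 fragments) and 22.1 in WT 2 (median 15).

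A region outside the WT lists has no WT value, since the lists hold peaks only. The weakest peaks listed had 9 fragments in WT 1 and 8 in WT 2. Scaled for depth, 868 members (63.5%) would reach 15 fragments, the 10th percentile of WT 1 peaks, and 479 (35%) would reach 13 fragments, that of WT 2. At the median WT peak, 33 and 28 fragments, 58 (4.24%) and 23 members (1.68%) remained. Among the 5 least enriched members, those by Sfi1, Cebpd, Ccne1 and Ccr1 had 33 to 42 fragments in Mapk8-KO 1 but only 2.08-fold to 3.20-fold enrichment, and each lay within 2.64 kb of a shared region. Just outside the rule, a region over the TSS of the sodium leak channel gene Nalcn had 14 and 11 fragments in the Mapk8-KO libraries and was kept out by a WT 2 peak of 8 fragments.

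**Figure D2:**
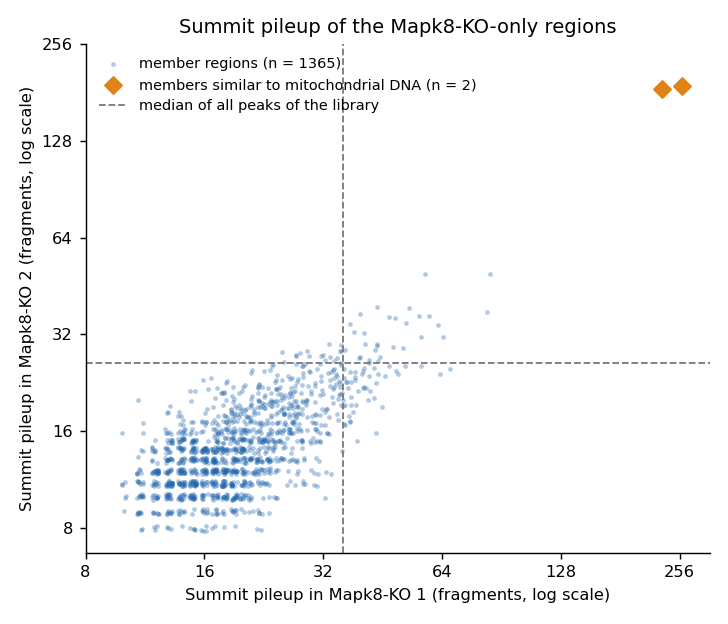
Summit pileup of each of the 1367 members in Mapk8-KO 1 (x axis) and Mapk8-KO 2 (y axis), in fragments on log scales with a small jitter, with the median of all peaks of each library as dashed lines at 36 and 26 fragments. The 2 diamonds at 260 and 189 and at 231 and 185 fragments are the members similar to mitochondrial DNA, and most of the others lie below both lines.

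The 2 members of highest pileup resembled mitochondrial DNA in sequence, and they are printed whole with the aligned stretch in capitals.
Cdh11, chr8:102024596-102024779, plus strand: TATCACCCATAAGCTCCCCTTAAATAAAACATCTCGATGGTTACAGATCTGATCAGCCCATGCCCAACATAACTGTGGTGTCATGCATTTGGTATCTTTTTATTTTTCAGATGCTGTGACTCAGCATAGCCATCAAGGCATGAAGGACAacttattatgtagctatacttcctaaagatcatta
Zdhhc3, chr9:123107316-123107485, plus strand: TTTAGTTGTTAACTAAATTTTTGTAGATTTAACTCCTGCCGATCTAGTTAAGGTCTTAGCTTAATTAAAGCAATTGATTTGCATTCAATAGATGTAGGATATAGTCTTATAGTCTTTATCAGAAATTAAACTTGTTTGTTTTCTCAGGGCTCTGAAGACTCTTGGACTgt

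The region on chromosome 8 lay between genes, 760.9 kb from the TSS of Cdh11, a cadherin gene, and the other in an intron of the palmitoyltransferase gene Zdhhc3. Their identity to the mitochondrial genome was 85.3% over 150 bp and 89.9% over 168 bp. Per the study's methods, reads that mapped to several places had been removed before peak calling. Intervals of this kind (80% identity over 50 bp) numbered 37 and 34 in the WT lists and 40 and 37 in the Mapk8-KO lists, so 1 library of each genotype had the same number (exact permutation p = 0.667, two-sided). At 90% identity each list had 23. None of the WT-only regions was of this kind. The part of mitochondrial reads in the 2 members was not tested.

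The members that ranked highest after these, as far as they are reported here, were the following. An intergenic region 897.2 kb from Luzp2 had 39 fragments in Mapk8-KO 1 and 27 in Mapk8-KO 2, and one 356.3 kb from Cd109, which encodes a co-receptor of TGF-beta in keratinocytes, had 41 and 26. An intron of Nol10 had 41 and 25, and a region 36.7 kb upstream of the guanine deaminase gene Gda held 35 and 26. The CTCF-motif members near Ahi1 and Samd12, printed above, had 34 and 24, and 32 and 23. In the library where each stood lower, their percentile of enrichment among all peaks ran from 70.15 to 81.2.

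Members were mostly distal. Introns held 486 members (35.6%), 566 (41.4%) lay between genes, 245 (17.9%) in promoters and 45 (3.29%) in coding exons. WT-only regions lay less often in promoters (14.4%, a difference of 3.56 points, 0.977 to 6.18) and more often in introns (42.0%). Regions called in all 4 libraries lay in promoters more often than members did (36.2%, a difference of −18.3 points, −20.3 to −16.1). So did those of both Mapk8-KO libraries and 1 WT library (22.0%). The median distance to a coding TSS was 36.3 kb for members (31.7 to 40.5), 31.6 kb for WT-only regions and 15.2 kb for regions called in all 4. At the near end, 65 members (4.76%) overlapped a coding TSS against 2.12% of WT-only regions, a difference of 2.64 points (1.37 to 4.02). The share was higher than in members among regions called in all 4 libraries (25.6%). It was 8.67% in those of both Mapk8-KO libraries and 1 WT library. At the far end, 40 members (2.93%) were over 500 kb from any coding TSS, against 1.95% of WT-only regions (difference 0.977 points, −0.0971 to 2.15). Median GC content was 48.5% in members, 47.0% in WT-only regions and 50.8% in regions called in all 4.

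Of the 245 members in promoters, 154 had a coding gene's TSS as the nearest, 25 that of a processed pseudogene and 23 that of a lincRNA gene. Ranked by percentile of fold enrichment, the first over a coding TSS belonged to Abl1, which encodes a non-receptor tyrosine kinase, with 24 and 19 fragments. The next over a coding TSS was at Map3k12, a kinase that acts upstream of JNK, with 22 and 17. Both lay in GC-rich DNA (68.9% and 67.9% GC). The member at the promoter of Rit1, a Ras-like GTPase, had 23 and 19 fragments and held an AP-1 motif, and that upstream of the ferritin-like gene Fthl17f had 26 and 23 and held the CTCF motif shown above. Of the 162 members within 2 kb of a coding TSS, 77 (47.5%, 40.0 to 55.2%) belonged to genes with another promoter region called in all 4 libraries, close to the 51.0% of WT-only regions.

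Members stood farther from shared open chromatin than WT-only regions did. The nearest region called in all 4 libraries was a median of 15.0 kb away (13.6 to 17.1), against 12.2 kb for WT-only regions (11.4 to 13.2). Such a distance was not particular to members. The median was 12.9 kb in regions of Mapk8-KO 1 alone and 16.3 kb in those of Mapk8-KO 2 alone. It was 9.29 kb in those of both Mapk8-KO libraries and 1 WT library. No shared region lay within 50 kb of 336 members (24.6%) and of 14.8% of WT-only regions, a difference of 9.77 points (6.97 to 12.6). The upper quartile of this distance was 49.0 kb in members, 49.3 kb in Mapk8-KO 1 alone and 65.2 kb in Mapk8-KO 2 alone. It was 24.5 kb over all merged regions. A shared region lay within 2 kb of 200 members (14.6%) and of 12.25% of WT-only regions, and the interval of the difference held 0. Of the regions called in all 4, 15.6% had another such region within 2 kb. In 1092 members (79.9%) the nearest shared region had the same nearest coding gene, a share that was not compared with other classes. Leaving out WT 1 brought the median to 9.66 kb, with 5404 regions then meeting the rule.

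**Figure D3:**
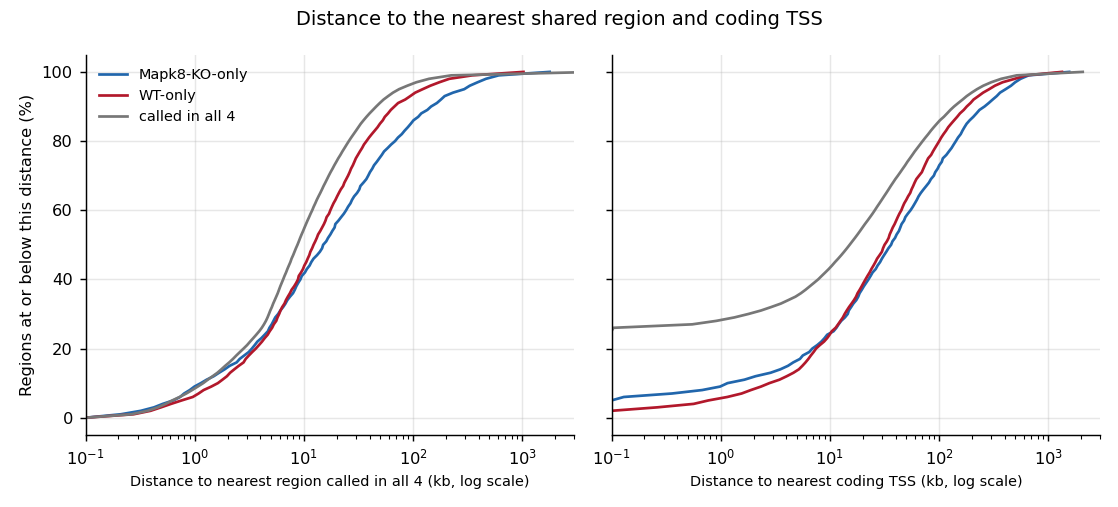
Cumulative share of regions (y axis, percent) by distance in kb, on a log scale, to the nearest region called in all 4 libraries (left) and to the nearest coding TSS (right), with distances under 0.1 kb drawn at that value. The curve of the 1367 members crosses 50% at 15.0 kb and 36.3 kb, to the right of WT-only regions at 12.2 kb and 31.6 kb.

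Clustering along chromosomes was modest. Another member lay within 100 kb of 269 members (19.7%, 17.7 to 21.9%), in 123 clusters, and 24.9% of the more numerous WT-only regions had such a neighbour. There were 106 clusters of 2 members, 11 of 3 and 6 of 4. The share with another within 100 kb was 52.5% without WT 1, 32.8% without Mapk8-KO 1 and 60.0% without Mapk8-KO 2, when more regions met the rule. By chromosome, members made up 1.27% of the merged regions on chromosome 12 and 2.11% on chromosome 17, the extremes among autosomes and chromosome X. The intervals of chromosome 7 (0.999 to 1.64%) and chromosome 17 (1.67 to 2.65%) left out the 1.65% of the whole atlas and those of the other chromosomes included it. A single member was on chromosome Y, where 11 to 16 intervals were called per library although the mice were female.

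The coding gene nearest to the most members was Slc10a2, the ileal bile acid transporter, with 7 members among 31 merged regions and no WT-only region. A cluster of 4 lay in intergenic DNA upstream of it, at chr8:6565234-6659206, 1460 to 1554 kb from its TSS. Its members had 17 and 14, 15 and 11, 14 and 11, and 28 and 15 fragments, the value of Mapk8-KO 1 first here and below. Between them, at chr8:6608820-6609309, was a region called in all 4 libraries, with 26 fragments in WT 1 and 20 in WT 2, and 62 and 34 in the Mapk8-KO libraries. The genotypes did not overlap there, and its log2 fold change was 1.03 ± 0.265 (SE, limma adjusted p = 0.0317). The other 3 members lay 101.7 to 387.3 kb from the gene.

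Other clusters of 4 lay near the following genes. On chromosome 16 they lay downstream of Cldn17 and upstream of Cldn8, which encode claudins of tight junctions, with 16 and 11, 17 and 10, 20 and 14, and 13 and 19 fragments. On chromosome 1 they lay 31.7 to 138.3 kb upstream of Rb1cc1, an autophagy gene, with 14 and 14, 20 and 16, 27 and 18, and 16 and 17 fragments. The third of these held a CTCF motif. A further 2 were on chromosome 18, near Stard4 and Nrep and in Commd10.

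The 1367 members had 1193 different nearest coding genes. Of these 1057 had 1 member, 107 had 2, 23 had 3 and 5 had 4, among them Bmper, Elmo1, Myc and Rb1cc1. A WT-only region was also nearest to 204 of the 1193 genes (17.1%), and a region called in all 4 to 1013 (84.9%). For scale, WT-only regions were nearest to 1559 of the 16758 coding genes that had any merged region. The number of regions per gene was not accounted for in these counts. Bmper encodes a regulator of BMP signalling, and its 4 members, of 24 merged regions, had 23 and 17, 22 and 22, 25 and 16, and 17 and 13 fragments. Elmo1, which encodes an activator of Rac in cell motility, had 4 of 27, at 18 to 20 fragments in Mapk8-KO 1 and 12 to 22 in Mapk8-KO 2.

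Cell cycle genes had the highest share of members among the 21 gene lists. Members made up 11 of their 246 merged regions (4.47%, 2.52 to 7.83%), beside 1.65% of all regions, and WT-only regions made up 3. In the other lists the interval included 1.65%, except that of EGF receptor family genes. These intervals take regions as independent and make no allowance for the number of lists. The 11 lay by Myc (4), Ccne1 (2), Mycn (2), Cdk1, Cdkn2b and E2f3. Myc drives growth and entry into the cell cycle, and its members lay 159.0 kb and 504.9 kb upstream of the gene and 307.9 kb and 479.5 kb downstream. They had 25 and 19, 25 and 15, 15 and 13, and 15 and 13 fragments. Myc had 82 merged regions in all. The member by Cdk1, the kinase of mitotic entry, had 21 fragments in each library and held an AP-1 motif, and one by Ccne1, cyclin E1, was among the least enriched of all, with 42 and 20 fragments at 3.20-fold and 2.40-fold.

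The epidermal gene lists had shares whose intervals included that of all regions, except the list of EGF receptor family genes. Terminal differentiation genes had 4 of 296 regions (1.35%, 0.527 to 3.42%), by Klf4, Abca12, Klk7 and Tgm1, where 2 were WT-only. The member 549.9 kb upstream of Klf4, a factor of barrier formation, had 23 and 25 fragments, and that upstream of Abca12, a lipid transporter of lamellar granules, had 83 and 38 and held an AP-1 motif. Klk7, a protease of desquamation, had a member over its TSS with 24 and 23. Keratinocyte identity genes had 2 of 410 regions (0.488%, 0.134 to 1.76%), by Sfn and Col17a1, and WT-only regions 9. Hair follicle genes had 3 of 387 (0.775%, 0.264 to 2.25%), by Foxn1 and Sox9, where 7 were WT-only. None of the 234 regions of EGF receptor family genes and their ligands was a member (upper limit 1.61%), where 4 were WT-only.

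The signalling lists likewise had intervals that included 1.65%. JNK and other MAP kinase genes had 4 of 287 (1.39%, 0.543 to 3.53%): the Map3k12 promoter, an intron of Mapk14, which encodes p38 alpha, with 24 and 10 fragments, and 2 members nearest to Map3k1. AP-1 genes had 5 of 196 (2.55%, 1.09 to 5.83%), of which 3 lay by Maf, and those by Fosl2 and Batf3 had 24 and 20, and 39 and 27 fragments. Psoriasis-type cytokine genes had 1 of 221, 106.8 kb upstream of Tnfaip3, the A20 inhibitor of NF-kB signalling, with 16 and 14. Interferon response genes had 0 of 57 (upper limit 6.31%). Wnt, Notch and TGF-beta genes had 12 of 972 (1.23%) where WT-only regions numbered 30. Genes of axon guidance and synaptic adhesion had 29 of 1325 (2.19%, 1.53 to 3.13%), ion channels 19 of 785 (2.42%), homeobox factors 13 of 587 (2.21%), olfactory and vomeronasal receptors 8 of 400 (2.00%) and zinc finger proteins 17 of 1606 (1.06%).

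Markers of other cell types were looked at in the same way. The T cell list had 1 of 96 regions (1.04%, by Gzmb), the endothelial list 1 of 103 (0.971%, by Rgs5) and the list of melanocytes, Merkel and Schwann cells 2 of 114 (1.75%, by Tyrp1 and Ngfr), beside 1.65% of all regions. The myeloid, fibroblast, and muscle and fat lists had 0 of 38, 0 of 74 and 0 of 30 regions. As to the sorted cells, 5 of 8 defining keratinocyte genes (Epcam, Itga6, Itgb4, Krt15 and Trp63) and 24 of 27 keratinocyte identity genes had a promoter region called in all 4 libraries, against 55% of all coding genes. Krt5, Krt14 and Col17a1 did not. Such a region was also called for 9 of 20 genes of the melanocyte, Merkel and Schwann list and 6 of 18 endothelial genes. It was called for 6 of 22 myeloid, 4 of 24 T cell, 3 of 21 fibroblast and 0 of 16 muscle and fat genes. The promoter of Ptprc, which encodes CD45, was called in no library, while those of Pecam1 (CD31) and Pdgfra (CD140a) were called in all 4. No member had Mapk8 as its nearest gene, and the region over the Mapk8 promoter was called in every library. The position of the deleted part is not given in the sources used here, so this does not check the deletion.

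Whether shared regions beside the members also differed was asked of the 40159 regions called in all 4, by limma on log2 pileups centred on their median, since the rule did not use these regions. The p-values measure only the spread between these libraries, and in sorted bulk cells fewer cells with a region open cannot be told apart from a region less open in each cell. The nearest shared regions of members, 1274 in all, had a median log2 fold change (Mapk8-KO minus WT) of 0.09 (95% interval 0.06 to 0.10), against 0.05 over all shared regions and 0.03 for the neighbours of WT-only regions. Promoter regions called in all 4 had a median of 0.14, and they made up 33.9% of the neighbours of members and 33.4% of those of WT-only regions. Outside promoters the median was 0.05 for neighbours of members, −0.01 for all shared regions and −0.05 for neighbours of WT-only regions. Of these neighbours 8 passed an adjusted p of 0.05 (0.628%), where 0.608% of all shared regions did. There were 5 higher in Mapk8-KO and 3 lower, while over all shared regions 0.11% were higher and 0.498% lower (44 and 200 regions). Without WT 2 that balance turned, with 5 higher and 1 lower. The share was therefore near the background, and no neighbour passed when WT 1, WT 2 or Mapk8-KO 2 was left out, where 54 did without Mapk8-KO 1.

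**Figure D4:**
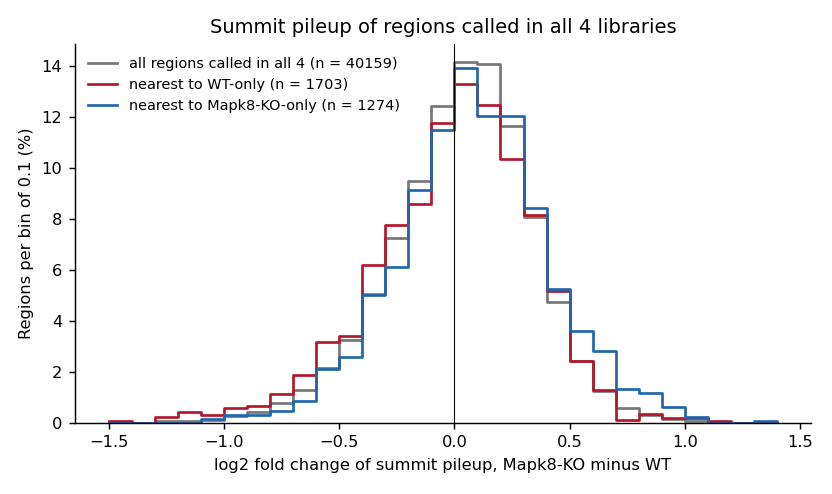
Distribution of log2 fold changes of summit pileup (x axis, Mapk8-KO minus WT) in bins of 0.1, with the share of regions per bin in percent on the y axis, for the nearest shared regions of members and of WT-only regions and for all regions called in all 4. The 3 curves overlap over most of their range, with medians of 0.09, 0.03 and 0.05.

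A member over the TSS of Elf5, an ETS factor of epithelial cells, had 24 and 15 fragments. Its nearest shared region, in an intron of the same gene at chr2:103419510-103419791, went the opposite way, with 50 and 36 fragments in the WT libraries and 29 and 14 in the Mapk8-KO libraries (log2 fold change −1.05 ± 0.276 SE, limma adjusted p = 0.0373). These pileups are as called and not scaled for depth, which relative to WT 1 was 0.694 for WT 2 and 1.10 and 0.612 for the Mapk8-KO libraries. The promoter region of Limk1, a kinase of cofilin, had 62, 50, 53 and 16 fragments in the same order of libraries (log2 fold change −0.91, adjusted p = 0.043), and an intronic region of Pdlim5 had 111, 83, 103 and 30 (−0.77, adjusted p = 0.0305). In both the unscaled values of the genotypes overlapped, and those divided by the depths did not, with Mapk8-KO 2 the lowest either way. Mapk8-KO 2 was also the high value at the Rps29 promoter, a ribosomal protein gene, with 179, 115, 195 and 399 fragments (0.98, adjusted p = 0.000477), which was 573.4 kb from the member. Divided by the depths, Mapk8-KO 1 there lay between the WT libraries.

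The largest rise beside members was on chromosome 17 near 4930583I09Rik, the nearest coding gene of 3 members of 8 merged regions. The shared region at chr17:64917657-64918564 had 12 and 13 fragments in the WT libraries and 29 and 32 in the Mapk8-KO libraries (log2 fold change 1.31 ± 0.316 SE, limma adjusted p = 0.018). Both Mapk8-KO libraries exceeded both WT libraries. Members lay on its sides at 16 kb, with 18 and 19 fragments, and at 82.2 kb, with 19 and 20. The remaining neighbours that passed were by 4930453N24Rik on chromosome 16 (49, 32, 74 and 89 fragments, log2 fold change 1.06, adjusted p = 0.00178) and by Tcp10c on chromosome 17 (387, 255, 589 and 422, log2 fold change 0.69, adjusted p = 0.031).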

How the data were processed

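Peak lists of 4 libraries, 2 per genotype, were analysed, with groups taken from the sample titles. Per the study's methods the authors aligned paired reads to mm10 with Bowtie2, dropped multi-mapped and low-quality reads, and called peaks per library with MACS2 at a q of 0.05. The submitters' processing notes name Trimmomatic 0.36, STAR 2.5.3, Picard, SAMtools and MACS2. In the deposited lists the highest q was 0.00928 to 0.00970. Each deposited interval has a score, a fold enrichment ratio for its summit, a −log10 p and a −log10 q, all computed by the authors' peak caller. No counts of reads per region were used, so the study's DESeq2 test was not run, and the read depth is unknown. The lists held 69927 (WT 1), 54856 (WT 2), 69583 (Mapk8-KO 1) and 49856 (Mapk8-KO 2) intervals, so a fixed q means different depths.

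The members, gene lists, markers and tests were chosen with earlier results of these data known. Summit pileups were recovered from fold and −log10 p, and at least 99.996% came out whole within 0.05. Intervals sharing 1 bp were merged. TSSs came from GENCODE vM21 and sequences from RefSeq GRCm38, which has the same coordinates as mm10. Shares carry Wilson and differences Newcombe 95% intervals, which take regions as independent. Library values were compared by exact permutation (smallest p 0.33), and log2 pileups of shared regions by limma 3.58.1 with a trended variance and p-values adjusted over 40159 regions (Benjamini-Hochberg). Mitochondrial similarity was searched with blastn 2.17.0 (80% identity over 50 bp). The scripts, in Python 3.11.15 and R 4.3.3, were tested on simulated data. Regions named were the 12 ranking highest, the 10 highest within 2 kb of a coding TSS, up to 3 per gene list, those of the 10 genes with most members, the largest clusters (6 tied at 4 members), the 5 just inside and 5 just outside the rule, and neighbours that passed limma. Other members named are the rest of lists counted. Some regions that this rule names are not reported here. The alternatives changed overlap, thresholds, annotation, normalization and libraries, and those on motifs, promoters, chromosome Y and the choice of summit were added after seeing the data.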

Additional observations from a re-analysis of the deposited data

How the results depend on the processing

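Over 129 alternatives to 13 results, 68 left the value within the margin set for it, 61 moved it further and 0 reversed it. A reversal could be recorded only for the CTCF and AP-1 differences, the neighbours' median log2 fold change and the comparison of libraries. The other results have no direction to reverse. The margin was 1.5 times for a count, the 95% interval for a share, median or difference, and the same direction for the comparison of libraries, which no setting can take past a threshold. A difference of 0 was counted as the same direction. This was so at 90% identity, where each library had 23 intervals like mitochondrial DNA. The cause of a change was not tested for any of the alternatives. Leaving out 1 library changed the number of regions meeting the rule from 1367 to between 1833 (without WT 2) and 8394 (without Mapk8-KO 2), with 5404 without WT 1 and 3063 without Mapk8-KO 1, as fewer lists then have to meet the rule. The median distance to a coding TSS then ran from 25.9 to 36.3 kb, the promoter share from 17.9 to 20.9%, the median distance to a shared region from 9.66 (without WT 1) to 15.3 kb, the share with another member within 100 kb from 25.3 to 60.0% (52.5% without WT 1, 32.8% without Mapk8-KO 1), the GC content from 48.7 to 49.6% and the members like mitochondrial DNA from 2 to 5 (without Mapk8-KO 2). The intervals per library like mitochondrial DNA differed by 1.5 to 4.5 between genotypes. The CTCF difference from WT-only regions ran from 1.85 (without WT 2) to 4.50 points and the AP-1 difference from −31.9 to −17.2 points, smallest without WT 2. Shared regions called by limma ran from 6 (without WT 2) to 1717 (without Mapk8-KO 1), with 28 without WT 1 and 21 without Mapk8-KO 2, with more higher than lower calls (5 and 1) only without WT 2, members' neighbours called from 0 to 54, and their median log2 fold change from 0.0527 (without Mapk8-KO 2) to 0.152 (without Mapk8-KO 1).

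With lists cut to equal length the values were 25.7 kb to a coding TSS, 23.8% in promoters, 11.2 kb to a shared region, 22.1% within 100 kb of another member, 49.7% GC and an AP-1 difference of −31.6 points. Asking for 50% cover gave 18.3 kb to a shared region. TSSs of all genes gave 14.1 kb. Promoter shares were 13.5% at 1 kb, 27.3% at 5 kb and 11.9% for coding TSSs. Linking distances of 50 and 250 kb gave 12.9% and 34.5%. GC was 49.3% in 100 bp around summits and 47.6% outside promoters, and a window of 50 bp gave an AP-1 difference of −22.2 points. At 90% identity 0 members were like mitochondrial DNA. Limma called 0 shared regions without a variance trend (3987 at an unadjusted p under 0.05) and 0 members' neighbours. With a GC correction it called 91 and 2, with a mean pileup of at least 20 it called 115 and 3, and with quantile normalization 29 and 1, where the neighbours' median was 0.0469. Outside promoters that median was 0.0467, against 0.0855 over all neighbours.

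The replicate numbers did not pair the libraries (r = 0.0392 over 40159 regions). With the replicate block, limma called 386 shared regions and 16 neighbours, and with a replicate block of equal lists 22.8% of members had another within 100 kb and the AP-1 difference was −32.0 points. The paired difference in intervals like mitochondrial DNA was 3.

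The precision is limited by 2 libraries per genotype and by lists without read counts, which give no WT value for a member. Scaled for depth, 63.5% of members reached the 10th percentile of WT 1 peaks and 35% that of WT 2 peaks.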
